A study of Mus musculus with 6 samples.

Results

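The 47 genes described here encode the proteins that choose and license replication origins, unwind DNA, copy it at the fork and supply the nucleotides for it. They were taken as the rows whose Ensembl identifiers carry the symbols of a fixed list, and all 47 were found among the 53801 genes of the count tables. RNA was sequenced from the mouse pre-osteoblast line MC3T3-E1 in 3 Control libraries and 3 Hdac4-knockdown libraries. Both groups carried a lentivirus made from the same vector, which also encodes the fluorescent protein ZsGreen1 and resistance to puromycin, and both were kept in 5 μg/ml puromycin for 7 days. The Control virus expressed a scrambled non-silencing RNA and the Hdac4-knockdown virus a short hairpin RNA against Hdac4, a class IIa histone deacetylase. By the study's account, the sequenced knockdown cells all carried the same hairpin, so an effect of the hairpin and an effect of losing Hdac4 cannot be told apart. Bulk RNA of this kind cannot distinguish a smaller share of cells in S phase from less of these RNAs in each cell.

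Replication in animal cells begins at origins bound by the origin recognition complex (ORC). In G1, CDC6 and CDT1 help ORC to load the ring-shaped MCM2-7 helicase, and geminin later blocks CDT1 so that each origin fires once per cycle. The kinase CDC7, with its partner DBF4, then allows CDC45 and GINS to join MCM2-7, and the sliding clamp PCNA and the polymerases complete the fork. Many of these genes are transcribed most strongly around the G1/S transition, under the control of E2F transcription factors.

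Each library held between 29096544 and 31651826 counts on genes, of which 119915 to 176375 were on the 47 genes. Levels are given as CPM, a gene's counts scaled to the size of the library, after normalization by trimmed mean of M-values (TMM), listed for replicates 1, 2 and 3 of Control and then of Hdac4-knockdown. A gene was called when its adjusted p was below 0.05 and its log2 fold change, Hdac4-knockdown over Control, was beyond 0.05 in size. All adjusted p-values come from edgeR (quasi-likelihood F test), corrected by the Benjamini-Hochberg method for 14531 tested genes. Hdac4 itself was at 40.7, 40.2 and 39.9 CPM in Control and at 30.7, 28.8 and 29.5 CPM in Hdac4-knockdown libraries. The groups did not overlap, and Hdac4 fell by 0.44 on the log2 scale (SE 0.057, adjusted p = 8.98e-07), to 73.6% of Control. Of its exon bases, 22.4% are shared with Gm26720, another annotated gene.

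The libraries also differed in genes that mark a cell's type, and these values stand beside every result that follows. The 7 skeletal muscle markers were all lower in the knockdown, with a summed level of 897 to 933 CPM in Control and 127 to 146 CPM in Hdac4-knockdown libraries. Myod1, which specifies muscle, had 2046, 2152 and 1848 counts in Control and 296, 258 and 280 in the knockdown. Of the 12 osteoblast markers, 7 were called higher, and their sum was 1610 to 1678 CPM in Control and 19450 to 20290 CPM in the knockdown. Most of that sum was type I collagen, whereas Alpl, the alkaline phosphatase of osteoblasts, had at most 3 counts in any library, and Bglap, Bglap2 and Ibsp, markers of mature osteoblasts, did not pass the filter. The Y-linked gene Ddx3y had 0, 0 and 3 counts in Control and 106, 46 and 66 in the knockdown, and Eif2s3y, also Y-linked, had 0 in each Control library and 39, 37 and 45 in the knockdown. Xist, which coats the inactive X chromosome, had 38860, 34913 and 33205 counts in Control and 12321, 10611 and 9996 in the knockdown. For the replication genes, a difference in the cells that the cultures held and an effect of the knockdown cannot be told apart here.

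Transcripts of the replication machinery were lower in Hdac4-knockdown cells almost throughout. All 47 genes passed the filter on low counts, 45 were called lower, none was called higher, and 2 were not called (Cdt1 and Fen1). Over all genes tested, 37.1% were called lower and 38% higher, and 75.1% were called in either direction, so that a call by itself was common in this comparison. The groups did not overlap for the same 45 genes, and 38% of all genes had every knockdown library below every Control library. The median log2 fold change of the 47 genes was -0.49, beside 0.01 for all genes tested. Individual values ran from -1.35 for Rrm2 to 0.27 for Fen1, with standard errors between 0.037 and 0.19.

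The changes were moderate in size. Of the 47 genes, 22 were lower by more than 0.5 on the log2 scale, beside 19.8% of all genes. Only 4 were lower by more than 1 (Rrm2, Dbf4, Pold3 and Gins1), a share near the 10.6% of all genes that were. Summed over the 47 genes, the level was 5772, 5748.5 and 5746.3 CPM in Control and 3905.7, 3975.1 and 3983.7 CPM in the knockdown. The 3 knockdown libraries lay together and well below the 3 Control libraries, at 68.7% of the Control mean.

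**Figure D1:**
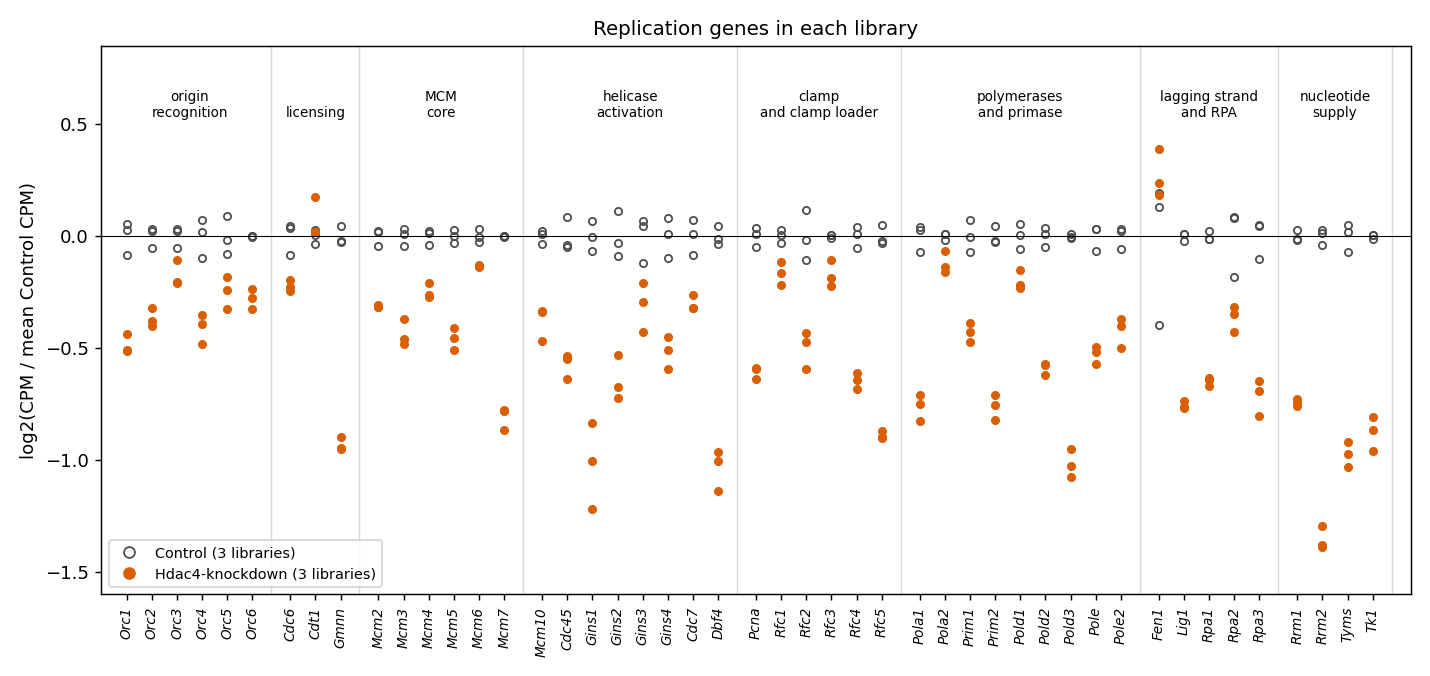
Level of each of the 47 replication genes in each library, as log2 of its CPM over the mean CPM of the 3 Control libraries, grouped by role. Open circles are Control and filled circles Hdac4-knockdown libraries, and the filled circles lie below all open circles for every gene but Cdt1 and Fen1.

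The promoters of these genes were read because many replication genes share E2F binding motifs. Of the 47 genes, 39 matched an entry of the RefSeq promoter table (GRCm38.p6), which spans 250 bases before to 50 bases after each start. The 2 forms searched, on both strands, were TTTNNCGC and TTCCCGC, and they overlap in TTTCCCGC, which counts as a match to both. A gene with several entries was counted once, as matched if any entry held the letters. TTTNNCGC was found in 16 of 39 members (41%) and in 9.78% of the 10372 tested genes with an entry. TTCCCGC was likewise found in 16 of 39 members (41%) and in 9.82% of tested genes, and at least 1 of the forms was present in 22 members (56.4%) against 16.5% of tested genes. Counted per entry over all 32851 promoters in the table, the shares were 5.17% for TTTNNCGC, 4.6% for TTCCCGC and 8.45% for either. The 22 with a match had a median log2 fold change of -0.43 and the 17 without one a median of -0.57. Rrm2 is shown with 3 matching promoters because it fell the most and has no match, and Mcm6 because it has a match and fell the least of the MCM2-7 genes. Each stretch is 100 bases upstream of the annotated starts, 5′ to 3′ on the gene's strand and outside annotated exons, with the matched letters in capitals.
Mcm6, chr1:128359706-128359805, minus strand: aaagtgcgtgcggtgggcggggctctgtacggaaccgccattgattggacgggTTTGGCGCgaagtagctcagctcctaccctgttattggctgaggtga
Rpa2, chr4:132768232-132768331, plus strand: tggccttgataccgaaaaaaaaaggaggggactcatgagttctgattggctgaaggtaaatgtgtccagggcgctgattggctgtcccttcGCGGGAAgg
Rrm1, chr7:102441595-102441694, plus strand: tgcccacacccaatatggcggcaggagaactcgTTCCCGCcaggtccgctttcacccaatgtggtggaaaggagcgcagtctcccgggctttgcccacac
Rrm2, chr12:24708141-24708240, plus strand: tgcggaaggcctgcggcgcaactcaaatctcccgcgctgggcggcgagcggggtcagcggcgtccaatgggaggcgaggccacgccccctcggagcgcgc
The Mcm6 stretch holds TTTNNCGC, whereas those of Rpa2 and Rrm1 hold TTCCCGC, in Rpa2 on the opposite strand. The log2 fold changes of the 4 genes were -0.13, -0.36, -0.74 and -1.35 in the order shown, an order that follows from how Mcm6 and Rrm2 were picked. The CCAAT box, a common promoter element of cell cycle genes, was present in 23 of 39 members (59%) and 43.1% of tested genes (37.4% of all promoters). TTTGAA, a form of the cell cycle homology region of mitotic genes, was present in 7 of 39 (17.9%) and 14.4% of tested genes (17.9% of all promoters), and TTCGAA, another form, in 2 (5.13%) and 2.43% (1.56%). A match gives the letters in this window and not a bound site.

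The 6 ORC genes all fell, with a median log2 fold change of -0.32 and none beyond -0.5. Orc1, the ATPase subunit that cycles with cell division, was at 14.6, 14.8 and 13.5 CPM in Control and at 10.0, 10.1 and 10.6 CPM in the knockdown. It was the lowest of the group and fell by 0.49 (SE 0.086, adjusted p = 4.72e-05). Orc3, a core subunit, was at 65.2, 61.9 and 65.6 CPM in Control and at 59.7, 55.5 and 55.7 CPM in the knockdown. Its groups were close but did not overlap, and its decrease of 0.17 (SE 0.051, adjusted p = 0.00517) passed the test here but not with upper-quartile normalization (-0.08, adjusted p = 0.153) or with scaling by library size alone (-0.11, adjusted p = 0.0506). Orc2 (-0.37), Orc4 (-0.41), Orc5 (-0.25) and Orc6 (-0.28) lay between these. Orc2 shares 29.8% of its exon bases with Nif3l1 on the opposite strand, and the library kit does not record strand, so its counts are less certain.

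The licensing genes split. Gmnn, which encodes geminin, the inhibitor of licensing, was at 42.8, 40.8 and 40.8 CPM in Control and at 21.5, 21.4 and 22.3 CPM in the knockdown. All knockdown libraries were near 52.4% of the Control level, a decrease of 0.93 (SE 0.060, adjusted p = 2.58e-11). Cdt1, the loading factor that geminin binds, was at 109, 112 and 114 CPM in Control and at 113, 126 and 113 CPM in the knockdown. The groups overlapped and Cdt1 was not called (0.07, SE 0.048, adjusted p = 0.179). It was called higher with upper-quartile normalization (0.16, adjusted p = 0.00532), with scaling by library size alone (0.13, adjusted p = 0.0202) and with a filter of at least 10 counts in every library (0.11, adjusted p = 0.0436). Cdc6, the ATPase that joins ORC to recruit MCM2-7, was at 57.0, 52.1 and 56.6 CPM in Control and 46.6, 47.2 and 48.2 CPM in the knockdown, a decrease of 0.22 (SE 0.053, adjusted p = 0.000907).

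The 6 genes of the MCM2-7 ring are among the most abundant of the 47, and all 6 fell, but by unequal amounts (median -0.38). Mcm7 was at 346, 347 and 347 CPM in Control and at 190, 203 and 202 CPM in the knockdown. It fell by 0.81 (SE 0.040, adjusted p = 3.86e-13), to 57.2% of Control. Mcm6 was at 412, 429 and 418 CPM in Control and at 382, 384 and 383 CPM in the knockdown. These groups were separate by a small margin, with a decrease of 0.13 (SE 0.037, adjusted p = 0.00325) that was not called with upper-quartile normalization (-0.04, adjusted p = 0.299) or with scaling by library size alone (-0.08, adjusted p = 0.0677).

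The other subunits of the ring fell by amounts between those of Mcm6 and Mcm7. Mcm5 went from 288, 293 and 282 CPM to 202, 217 and 210 CPM (-0.46, SE 0.040, adjusted p = 4.08e-09), and Mcm3 from 267, 277 and 282 CPM to 200, 213 and 197 CPM (-0.44, SE 0.042, adjusted p = 1.53e-08). Mcm2 went from 251, 252 and 241 CPM to 201, 199 and 199 CPM (-0.31, SE 0.039, adjusted p = 5.59e-07), and Mcm4 from 195, 187 and 196 CPM to 161, 159 and 166 CPM (-0.25, SE 0.041, adjusted p = 2.01e-05). In each of these genes the lowest Control library lay above the highest knockdown library.

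The 8 genes that activate the helicase all fell, with a median of -0.54. Dbf4, the activating partner of the CDC7 kinase, was at 93.3, 91.7 and 97.1 CPM in Control and at 46.9, 42.7 and 48.2 CPM in the knockdown. It fell by 1.03 (SE 0.053, adjusted p = 6.98e-13), to 48.8% of Control. Cdc7, the kinase itself, was at 38.2, 34.3 and 36.6 CPM in Control and at 30.3, 29.1 and 29.1 CPM in the knockdown, the smallest change of the group (-0.30, SE 0.061, adjusted p = 0.000183). GINS is a complex with 4 subunits, of which Gins1 fell by 1.01 (SE 0.087), Gins2 by 0.64, Gins4 by 0.52 and Gins3 by 0.31. Gins2 shares 67.3% of its exon bases with Gse1, so its counts are less certain. Cdc45, which travels with MCM2-7 and GINS, fell by 0.57 (SE 0.058), and Mcm10, an activator of the assembled helicase, by 0.38 (SE 0.053).

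Among the clamp and its loaders, all 6 genes fell (median -0.55). Pcna, the sliding clamp that tethers polymerases to DNA, was at 351, 357 and 337 CPM in Control and at 223, 230 and 232 CPM in the knockdown. It fell by 0.61 (SE 0.040, adjusted p = 3.59e-11), to 65.6% of Control, with tight replicates in both groups. Rfc5, a small subunit of the replication factor C (RFC) clamp loader, went from 75, 70.9 and 71.2 CPM to 39.6, 38.7 and 38.9 CPM. This was the largest decrease of the loader genes (-0.89, SE 0.050, adjusted p = 3.85e-12). Rfc1, the large subunit, went from 145, 151 and 148 CPM to 137, 127 and 132 CPM, a decrease of 0.17 (SE 0.043, adjusted p = 0.00184) that was not called with upper-quartile normalization (-0.08, adjusted p = 0.11). Rfc4 (-0.65), Rfc2 (-0.50) and Rfc3 (-0.17) also fell, and Rfc3 likewise lost its call with upper-quartile normalization (-0.08, adjusted p = 0.133).

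Reads close to the Pcna sequence were also counted on a pseudogene. Pcna-ps2 (ENSMUSG00000067608), a processed pseudogene on chromosome 19, is 99.2% identical to Pcna over 781 bases of the 1518-base Pcna transcript. It had 1205, 1425 and 1345 counts in Control and 391, 339 and 377 in the knockdown. The groups were far apart, a decrease of 1.91 (SE 0.086, adjusted p = 8.30e-14). Adding its counts to those of Pcna gave means of 393 CPM in Control and 241 CPM in the knockdown, a log2 ratio of -0.71. How reads were divided between the 2 genes was not tested. No other processed pseudogene of a member that aligned over at least 400 bases had more than 6 counts in a library.

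The 9 polymerase and primase genes all fell, with a median of -0.53. Pold3, an accessory subunit of the lagging strand polymerase delta, was at 75.7, 74.9 and 74.7 CPM in Control and at 35.7, 36.9 and 38.9 CPM in the knockdown. It fell by 1.02 (SE 0.051, adjusted p = 5.94e-13), to 49.5% of Control, whereas the catalytic subunit Pold1 fell by 0.20 (SE 0.047) and Pold2 by 0.59 (SE 0.046). In polymerase alpha-primase, which lays down the primers, the catalytic subunit Pola1 fell by 0.76 (SE 0.048), the primase subunits Prim2 by 0.76 (SE 0.054) and Prim1 by 0.43 (SE 0.050). Pola2, its regulatory subunit, went from 90.3, 90.2 and 88.6 CPM to 80.2, 85.6 and 81.6 CPM. Its groups did not overlap and its decrease of 0.12 (SE 0.045, adjusted p = 0.0218) was the smallest that was called. It lost the call with upper-quartile normalization (-0.03), with library size alone (-0.06), with at least 10 counts in every library (-0.08), without Hdac4-knockdown replicate 1 (-0.09) and without Hdac4-knockdown replicate 3 (-0.11). In polymerase epsilon, which copies the leading strand, Pole fell by 0.53 (SE 0.047) and Pole2 by 0.42 (SE 0.066). Further subunits of polymerases delta and epsilon, outside the 47, changed little or were not called. Pold4 (0.07, SE 0.053, adjusted p = 0.254) and Pole4 (-0.04, SE 0.064, adjusted p = 0.568) were not called. Pole3 was called lower (-0.14, SE 0.047, adjusted p = 0.0133).

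Of the 5 genes that protect single strands or finish the lagging strand, 4 fell. Lig1, the ligase that seals Okazaki fragments, was at 149, 152 and 152 CPM in Control and at 88.9, 90.4 and 88.6 CPM in the knockdown, a decrease of 0.76 (SE 0.042, adjusted p = 2.39e-12). Replication protein A (RPA), which coats single-stranded DNA, has 3 subunits, and Rpa3 fell by 0.71 (SE 0.070), Rpa1 by 0.65 (SE 0.039) and Rpa2 by 0.36 (SE 0.065). Fen1, the nuclease that removes RNA primers, had 85, 87 and 55 counts in Control and 103, 93 and 90 in the knockdown, or 2.78, 2.91 and 1.93 CPM and 3.33, 2.89 and 2.99 CPM. The groups overlapped and it was not called (0.27, SE 0.19, adjusted p = 0.199). Fen1 had by far the fewest counts of the 47 genes, since every other member had at least 310 counts in each library. Of its 2422 exon bases, 2039 (84.2%) lie within exons of other genes, mostly those of Gm10143 on the opposite strand, and reads that fit more than 1 gene were set aside in the deposited tables. Little can be said of Fen1 from these counts.

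Genes that supply deoxynucleotides fell the most of the 8 role groups, with a median of -0.93 and a summed level of 48.8% of Control. Rrm2, the small subunit of ribonucleotide reductase that is made in S phase, was at 504, 487 and 509 CPM in Control and at 191, 192 and 204 CPM in the knockdown. It fell by 1.35 (SE 0.041, adjusted p = 1.42e-16), to 39.2% of Control, the largest change among the 47 genes. Rrm1, the large subunit, was at 349, 348 and 359 CPM in Control and at 210, 208 and 212 CPM in the knockdown. It fell by 0.74 (SE 0.038, adjusted p = 7.54e-13). Tyms, the thymidylate synthase, fell by 0.97 (SE 0.051) and Tk1, the cytosolic thymidine kinase, by 0.88 (SE 0.046).

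**Figure D2:**
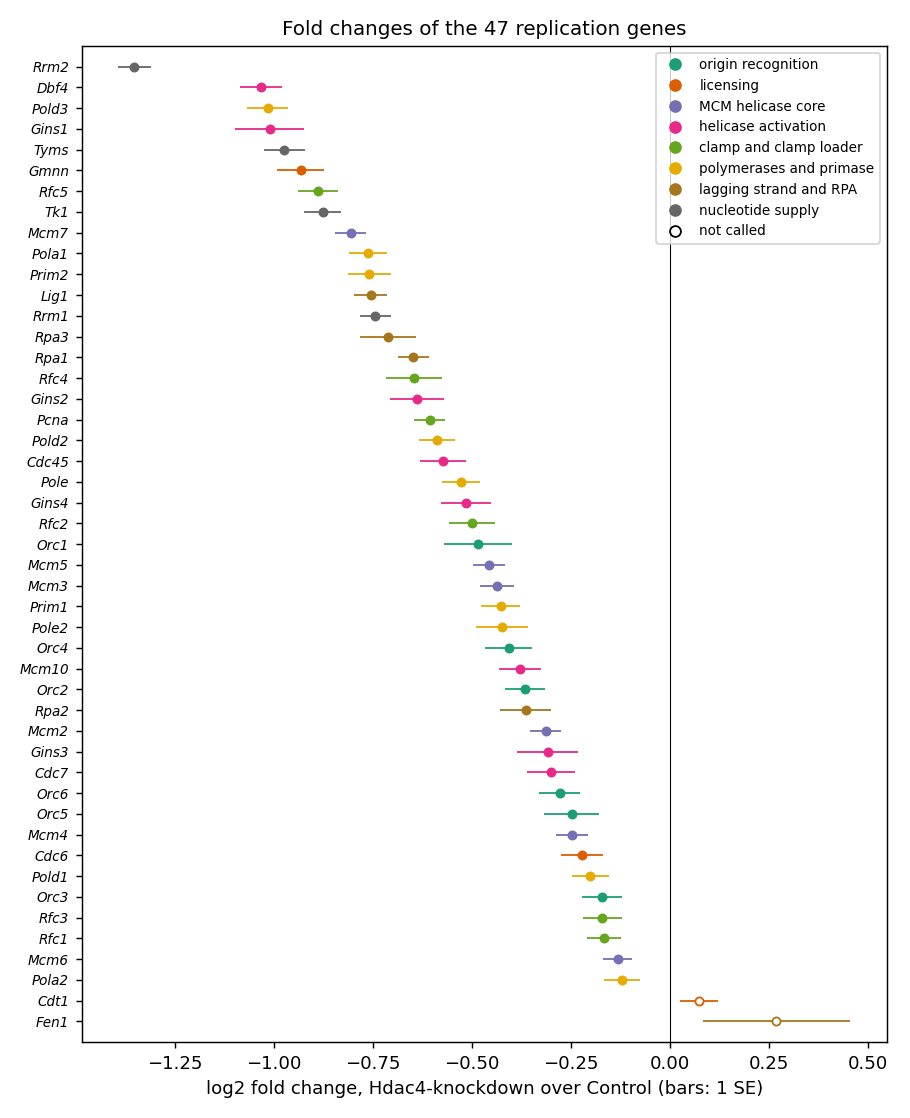
Log2 fold change, Hdac4-knockdown over Control, of each of the 47 genes, ordered from lowest to highest and coloured by role, with bars of 1 SE. The values run from -1.35 for Rrm2 to 0.27 for Fen1, and the open points are the 2 genes that were not called.

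Levels of subunits that work together were then compared per length, as TPM, a gene's share of counts per base of its length, computed with the bases in each gene's exons. In Control, the MCM2-7 genes ranged from 107 TPM for Mcm2 to 270 TPM for Mcm6, a ratio of 2.52, and in the knockdown the ratio was 2.86. ORC genes ranged from 12.3 TPM for Orc1 to 64.7 TPM for Orc6 in Control, a ratio of 5.25, and each ORC gene was below each MCM2-7 gene. With the longest transcript as the gene's length, the ratios in Control were 2.18 for MCM2-7 and 7.66 for ORC. Rrm2 had 542 ± 15.7 TPM (SD, n = 3) in Control and 230 ± 7.91 TPM (SD, n = 3) in the knockdown, and Pcna 436 ± 11.1 TPM (SD, n = 3) and 310 ± 2.72 TPM (SD, n = 3). Rrm2 was thus above Pcna in Control and below it in the knockdown. With the longest transcript as length, Pcna was at 535 TPM and Rrm2 at 531 TPM in Control, so their order there depends on the length used. Among the 3 polymerase delta genes of the 47, Pold3 had the lowest level in Control (49.0 TPM) and in the knockdown (26.2 TPM). Pold2 had the highest in both (154 and 111 TPM), and Pold4, a subunit outside the 47, was not compared. Among the RFC genes, the lowest was Rfc2 in Control (41.5 TPM) and Rfc5 in the knockdown (27.2 TPM). TPM values are divided by a total of their own, so the decreases on this scale are smaller than those in CPM, as in Mcm6, at 270 and 267 TPM.

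**Figure D3:**
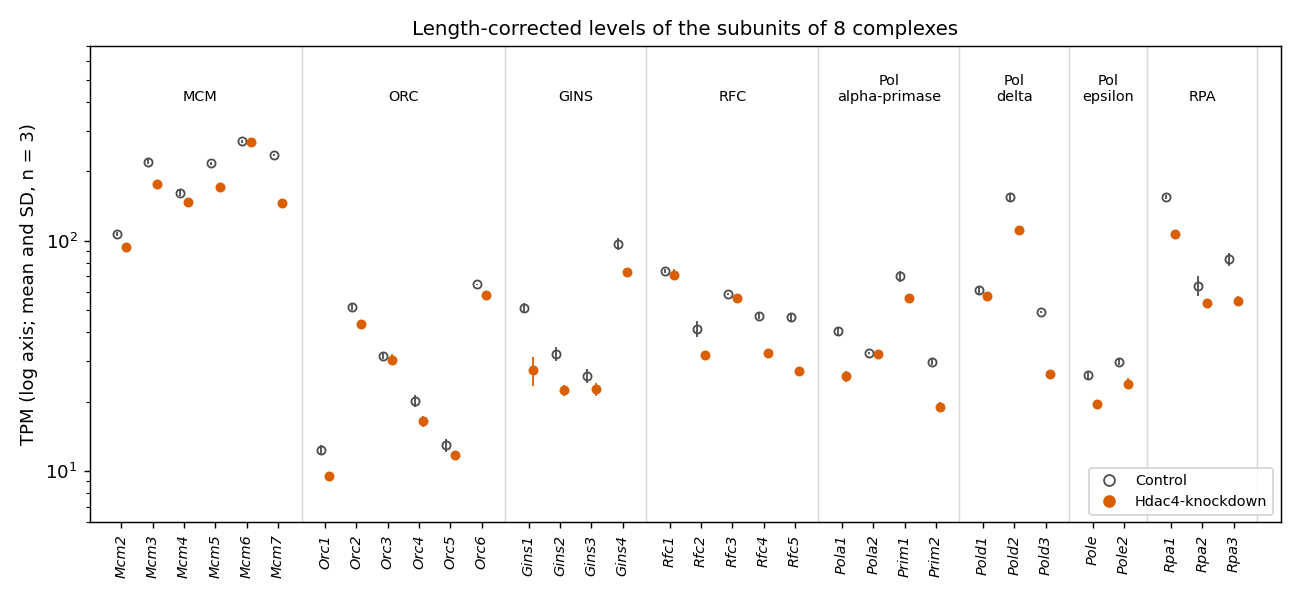
TPM (log axis) of the member subunits of 8 complexes in Control (open) and Hdac4-knockdown (filled) libraries, as mean and SD of 3 libraries. MCM2-7 genes lie between 93.4 and 270 TPM and ORC genes between 9.54 and 64.7 TPM.

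Partners of the same step were also set against each other within each library, since such a ratio does not depend on how libraries are scaled. The 6 pairs compared were chosen after their values had been seen, so the values are a description. In each pair the first gene is the one with the lower log2 fold change, so every difference is negative. The log2 ratio of Gmnn to Cdt1 counts was -1.35, -1.46 and -1.48 in Control and -2.40, -2.56 and -2.35 in the knockdown, a difference of -1.003 (SE 0.075). The ratio of the inhibitor to its target was thus lower in each knockdown library than in any Control library. Dbf4 over Cdc7 differed by -0.74 (SE 0.065), from 1.29, 1.42 and 1.41 to 0.63, 0.56 and 0.73. Pola1 over Pola2 differed by -0.64 (SE 0.073), Rrm2 over Rrm1 by -0.61 (SE 0.027) and Prim2 over Prim1 by -0.33 (SE 0.048), and the groups did not overlap in these 3 pairs. Pole over Pole2 differed by -0.10 (SE 0.069), and its groups overlapped. With 3 libraries against 3, a two-sided exact permutation test cannot give a p below 0.1, which the 5 pairs without overlap reached (0.12 after adjustment over 6 pairs). As the pairs were picked on these same values, no conclusion is drawn from these p-values.

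**Figure D4:**
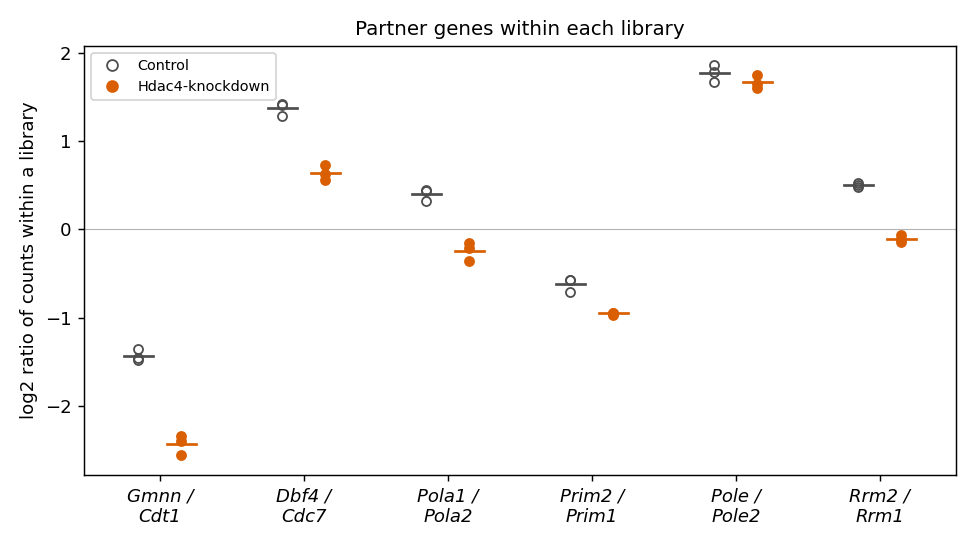
Log2 ratio of the counts of partner genes within each library, for 6 pairs. Open circles are Control and filled circles Hdac4-knockdown libraries, bars are group means, and the groups are separate for each pair except Pole over Pole2.

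Genes of neighbouring pathways were read from further lists, beside 37.1% of all tested genes called lower and 38% called higher. Of 25 other replication factors, 21 fell, 1 rose and 3 were not called (median -0.40). In this list Pif1, a DNA helicase, fell the most (-1.38, SE 0.090, adjusted p = 3.16e-11). Rnaseh2c, a subunit of the enzyme that cuts RNA in RNA-DNA hybrids, was the gene that rose (0.28, SE 0.068, adjusted p = 0.00107). The other subunits of that enzyme, Rnaseh2a (-0.71, SE 0.060) and Rnaseh2b (-0.96, SE 0.075), fell. Of 11 genes of chromatin assembly at the fork, 9 fell and 1 rose (median -0.57), from Asf1b, a histone chaperone (-1.21, SE 0.052), to Hells, a chromatin remodeller (0.16, SE 0.051, adjusted p = 0.0102). The groups of Hells overlapped in CPM, and its call was lost without Control replicate 2. Of 8 genes of the alternative clamp loaders and the checkpoint clamp, 7 fell and 1 rose (median -0.43). Dscc1, of the loader that acts in sister chromatid cohesion, was the lowest (-0.75, SE 0.086) and Rad9a, a subunit of the checkpoint clamp, rose (0.23, SE 0.053). All 6 genes of the other MCM proteins and DNA ligases fell (median -0.39), from Xrcc4, the partner of ligase IV (-0.54, SE 0.097), to Lig3 (-0.15, SE 0.052). Only 4 of these 6 were called with upper-quartile normalization, with library size alone or without Hdac4-knockdown replicate 3, and 5 with at least 10 counts in every library, without Control replicate 2 or without Hdac4-knockdown replicate 1.

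Of 13 genes for repair and translesion polymerases, 12 were tested, 4 fell, 6 rose and 2 were not called (median 0.22). Among all tested genes 37.1% were called lower and 38% higher, and the difference from the replicative polymerases was not tested. Polq, which joins broken ends by short homologies, fell by 0.61 (SE 0.075), and Polm, a polymerase of end joining, rose by 1.14 on the log2 scale (SE 0.067, adjusted p = 6.46e-12). Of 12 other genes of nucleotide supply, 9 fell (6 with upper-quartile normalization) and 3 rose (median -0.25), from Dck, the deoxycytidine kinase (-0.78, SE 0.058), to Tk2, the mitochondrial thymidine kinase (0.46, SE 0.077). Thus Tk1 and Tk2, the cytosolic and the mitochondrial enzyme, moved in opposite directions. Of 18 genes of the E2F and Rb family and their regulators, 13 fell, 1 rose and 4 were not called (median -0.43). E2f8, a repressor of the family, was the lowest (-1.30, SE 0.052), and Cdkn1a, the inhibitor p21 of cyclin-dependent kinases, rose by 1.09 (SE 0.040, adjusted p = 3.31e-15).

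Mitotic genes fell further than replication genes. All 22 on the list were called lower, with a median of -1.62 and values from -2.20 for Ube2c, a ubiquitin conjugating enzyme of the anaphase-promoting complex, to -1.09 for Kif11, a spindle motor. Only 1 of the 47 replication genes, Rrm2, lay below the highest mitotic value. In sums of CPM, mitotic genes were at 4459.6, 4514.9 and 4550.4 in Control and 1572.8, 1492.6 and 1581.6 in the knockdown, or 34.4% of Control, beside 68.7% for the replication genes. The mitotic list, like the 47 genes, was chosen with earlier results of these data known. It holds Cdk1, Ccna2 and Ccnb1, whose RNA the study had already reported as lower in its knockdown cells. The share called lower and the difference between the lists are therefore a description, and that difference was not tested.

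**Figure D5:**
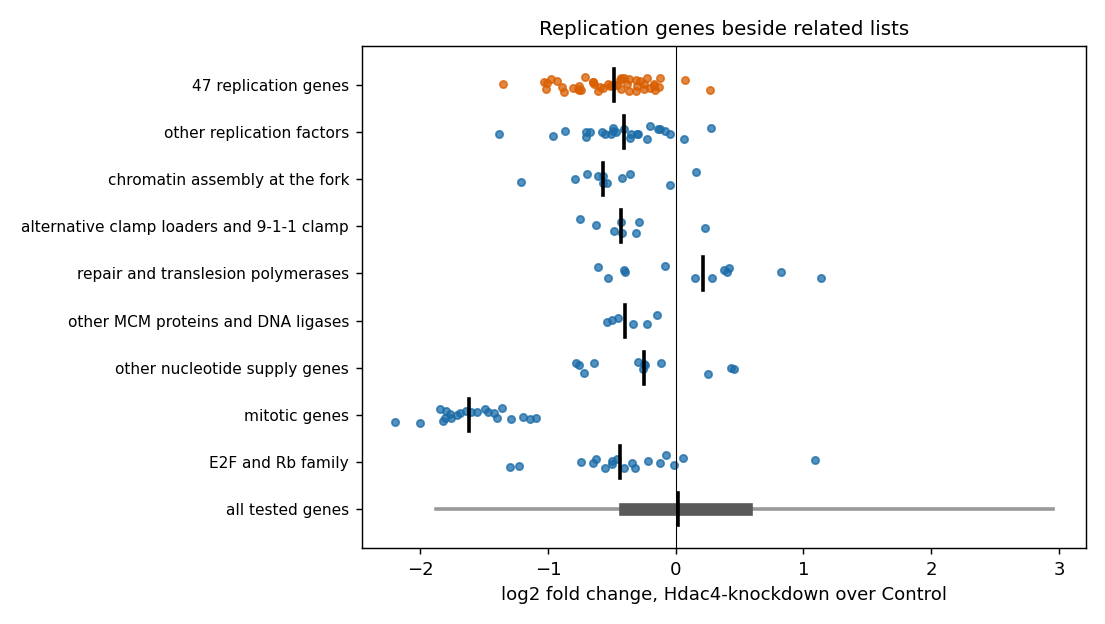
Log2 fold change, Hdac4-knockdown over Control, of the 47 replication genes and of 8 related lists, 1 point per tested gene, with the median as a black bar. The bottom row gives all 14531 tested genes, with the 25th to 75th percentile as the thick and the 5th to 95th percentile as the thin bar, and the mitotic genes lie furthest to the left (median -1.62).

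Position along the chromosome was compared as well. For each member, the median log2 fold change of the 25 tested genes on each side was taken (Rfc3 had 25 and Mcm10 had 38 such neighbours in all, as they lie near the ends of their chromosomes). These medians ran from -0.28 to 0.61, with a median of 0.11, and 13 were below 0. All 47 members lay below the median of their neighbours, beside 49.9% of the 14516 genes for which it was computed. Orc3 was the nearest to its neighbours (-0.17 beside -0.15) and Tk1 the farthest (-0.88 beside 0.61). Exon bases shared with another annotated gene were found for 17 of the 47 members, and 3 shared more than 20% (Fen1, Gins2 and Orc2).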

How the data were processed

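The authors deposited, for each of 6 libraries (3 per group), raw counts of reads per Ensembl gene (53801 genes), with no normalization. The labels describe poly-T selection, an unstranded kit and 3 independent RNA samples per group. The submitters' processing notes name FastQC, STAR 2.7.3a, HTSeq 0.12.4 and the mm10 build; the annotation release and strand setting are not given in the sources used here. Summary lines for reads outside genes (3.17 to 5.07% of a table), ambiguous reads (5.84 to 6.51%) and multiply aligned reads (3.88 to 4.77%) were left out.

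GENCODE M21 (GRCm38) gave symbols and positions for 53706 identifiers. Counts were tested with edgeR 4.0.16 in R 4.3.3 (TMM, filterByExpr, quasi-likelihood F test); an SE is the fold change over the square root of F. Libraries of a group differed by more than counting noise (chi-square per degree of freedom 3.23 to 8.36), and the biological coefficient of variation was 4.79%. The study calls them biological replicates but does not say whether each came from its own infection with the virus. The SE and adjusted p-values measure the spread among these libraries, and whether that covers separate infections is not known. Python 3.11.15 gave promoters, ratios and figures (matplotlib 3.10.9).

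The members and the lists were chosen with earlier results of these data known. Named are Hdac4, Pcna, Mcm2 to Mcm7, members not called, and the lowest and highest of each role group. Of each pathway list, the lowest and highest called gene are named. Other members are given as fold changes. Pold4, Pole3, Pole4, Rnaseh2a and Rnaseh2b were added as further subunits of enzymes already described. Cell type marker lists were osteoblast, skeletal muscle, chondrocyte, adipocyte, endothelial, haematopoietic, neural and glial, and epithelial; Xist and Y-linked genes were added after seeing the data. On simulated data for this comparison (14391 genes), 80.4% of genes planted at -1, 64.7% at -0.5, 76.1% at 0.5 and 94.2% at 1 were recovered, with 9 of 167 calls false. Alternatives were other scalings and filters, DESeq2 1.42.0, limma-voom (limma 3.58.1), a replicate block, fold thresholds, the longest transcript as length, and leaving out each library.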

Additional observations from a re-analysis of the deposited data

Results flagged for a closer look

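Reads that fell outside annotated genes were not used in any comparison. They made up 3.17 to 3.41% of the lines' total in the Control tables and 4.64 to 5.07% in the Hdac4-knockdown tables, so the lowest Hdac4-knockdown library (4.64%) lay above every Control library. This was looked at because it is a signal outside the gene counts that exceeds the level in Control. Its part in the replication genes' values was not tested. With 3 libraries per group, single libraries were not examined for outlying values.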

How the results depend on the processing

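No result reversed under any alternative run. The count of replication genes called lower stayed within 1.5 times of 45 under each scaling, filter, tool and left-out library, and was 22 beyond a log2 fold change of 0.5 and 4 beyond 1. DESeq2, DESeq2 size factors, limma-voom and no filter changed no call of the 47 genes or Hdac4. In the pathway lists, other replication factors called lower numbered 18 to 22 over all alternatives.

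Upper-quartile scaling raised the median of all genes by 0.089, and library size alone by 0.057. With upper quartile, 1 replication gene was called higher (Cdt1, so 1 licensing gene), as were 2 other replication factors and 2 genes of the E2F and Rb family. Medians became -0.40 for the replication genes, -0.23 for origin recognition, -0.13 for licensing, -0.29 for MCM2-7, -0.45 for helicase activation, -0.44 for polymerases and primase, -0.84 for nucleotide supply, -0.48 for chromatin assembly, -0.34 for the alternative clamp loaders, -0.30 for other MCM proteins and ligases, -0.16 for other nucleotide supply, -1.53 for mitotic genes and -0.34 for the E2F and Rb family. With library size alone, 1 replication gene (Cdt1, so 1 licensing gene) and 2 other replication factors were called higher. Medians were then -0.43 for the replication genes, -0.32 for MCM2-7, -0.47 for polymerases and primase, -0.87 for nucleotide supply, -0.51 for chromatin assembly, -0.19 for other nucleotide supply and -1.56 for mitotic genes. With at least 10 counts in every library, 1 replication gene (Cdt1, so 1 licensing gene) was called higher, and medians were -0.45 for the replication genes, -0.34 for MCM2-7, -0.21 for other nucleotide supply and -1.58 for mitotic genes. Without a filter, the median of other nucleotide supply was -0.28. The cause of these shifts beyond the scaling or filter itself was not tested.

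Leaving out each library in turn gave a median of the replication genes from -0.53 to -0.45. Other replication factors called higher numbered 1 to 2 (2 without Hdac4-knockdown replicate 1) and chromatin assembly genes called higher 0 to 1 (0 without Control replicate 2). The median ran from -0.28 to -0.21 for other nucleotide supply and from -1.63 to -1.58 for mitotic genes. Of the 47 genes, only Pola2 lost its call, without Hdac4-knockdown replicate 1 and without Hdac4-knockdown replicate 3. Ratios of highest to lowest Control TPM with the longest transcript as length were 2.18 for MCM2-7 and 7.66 for ORC. Same-numbered libraries did not deviate together (correlations -0.011, 0.027 and 0.017), so the values showed no pairing by replicate number. Whether same-numbered samples were prepared together cannot be read from these values. A fit with the replicate number as a block called 45 replication genes lower and 0 higher, with a median of -0.48. Depth is lowest for Fen1, with 55 counts in 1 library, where the SE was 0.19.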

Other observations

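Markers of other cell types were at low or intermediate levels in these libraries, and their values stand here without a comparison with the replication genes. The summed level of 6 chondrocyte markers was 125 to 128 CPM in Control and 169 to 186 CPM in Hdac4-knockdown libraries, with Acan, Col9a1 and Matn1 at no more than 3 counts in any library. For 6 adipocyte markers it was 43.1 to 46.8 CPM in Control and 8.89 to 10.1 CPM in the knockdown, with Adipoq, Plin1 and Lep at no more than 3 counts. The 8 neural and glial markers summed to 173 to 179 CPM in Control and 75.5 to 87.8 CPM in the knockdown. The 6 endothelial markers summed to 0.36 to 0.668 CPM in Control and 5.65 to 6.55 CPM in the knockdown, the 7 haematopoietic markers to 1.6 to 2.62 CPM and 2.69 to 3.17 CPM, and the 6 epithelial markers to 5.93 to 6.84 CPM and 7.63 to 9.06 CPM.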
